A study of Mus musculus with 6 samples.

Results

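Open chromatin was compared between touch dome keratinocytes and interfollicular epidermis (IFE) keratinocytes of mouse back skin, using the peak lists of 2 touch dome and 2 IFE libraries out of the 6 libraries in the study. Merging the peaks of these 4 lists wherever they shared 1 bp or more gave 65522 regions. A touch dome region was one with peaks in both touch dome libraries and in neither IFE library, and an IFE region had the reverse pattern. This rule found 4141 touch dome regions, 6.32% of all regions, and 1366 IFE regions, 2.08% of all regions, so 5507 regions differed. Because the peaks themselves chose these regions, their numbers and their peaks in these 4 libraries are descriptions without a test.

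All mice carried TNC-CREER, a tamoxifen-inducible Cre recombinase driven by Tnc, which encodes the matrix protein tenascin-C, and a tdTomato reporter, on the C57BL/6 background. Tamoxifen was given on postnatal days 51 and 52 (100 µg per g), and skin was taken on day 60. Touch dome cells were sorted as positive for EPCAM, SCA1, integrin α6 and Tomato, and IFE cells passed the same gate but were Tomato negative. Hair follicle (HF) cells, positive for EPCAM and integrin α6 and negative for SCA1 and Tomato, gave 2 further libraries that took no part in the choice of regions. Each library came from 50000 sorted cells. The labels do not say whether libraries of a group were taken from different mice, and the spread between replicates may thus be technical. They also do not say whether the Cre sits in the Tnc locus, and the Tomato gate marks cells in which the driver was active when tamoxifen was given, not cells defined by position.

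Touch domes are raised patches of epidermis next to guard hair follicles, in which columnar keratinocytes lie above the mechanosensory Merkel cells and are innervated by touch-sensing nerve fibres. Touch dome keratinocytes are known for Hedgehog target genes such as Gli1 and Ptch1 and for keratin 17, and Merkel cells arise from them through the factor Atoh1. In ATAC-seq a transposase cuts accessible DNA, and a peak is a stretch where cuts pile up, typically a promoter or an enhancer.

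Most differing regions lay away from gene starts, but a few covered a promoter. The RefSeq table for GRCm38.p6, the assembly behind mm10, held 32851 promoters of 300 bases, and 101 of them (94 genes) overlapped a touch dome region and 52 (44 genes) an IFE region. Printed here are the 250 bases before the start of 4 listed genes under touch dome regions, 5′ to 3′ on the gene's strand. Ror2 encodes a Wnt5a receptor (chr13:53286125-53286374, minus strand). Unc5c encodes a netrin receptor (chr3:141465314-141465563, plus strand). Itga4 encodes integrin α4 (chr2:79255176-79255425, plus strand). Kcnma1 encodes the BK potassium channel (chr14:24004206-24004455, minus strand). Capitals mark matches, on either strand, to the GC box GGGCGG, the CCAAT box, the TATA box TATAAA, the AP-1 motif TGANTCA, the Runx motif TGTGGT and the TEAD motif GGAATG.
Ror2 promoter: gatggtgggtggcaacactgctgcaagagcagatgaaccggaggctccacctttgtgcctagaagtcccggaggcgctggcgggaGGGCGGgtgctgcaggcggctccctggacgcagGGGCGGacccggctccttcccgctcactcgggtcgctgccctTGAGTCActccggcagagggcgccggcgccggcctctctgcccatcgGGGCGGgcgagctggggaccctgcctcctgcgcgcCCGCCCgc
Unc5c promoter: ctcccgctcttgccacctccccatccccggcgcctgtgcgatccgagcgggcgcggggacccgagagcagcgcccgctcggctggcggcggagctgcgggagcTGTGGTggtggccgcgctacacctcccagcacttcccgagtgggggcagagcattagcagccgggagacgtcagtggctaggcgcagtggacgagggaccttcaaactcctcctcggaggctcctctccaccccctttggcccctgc
Itga4 promoter: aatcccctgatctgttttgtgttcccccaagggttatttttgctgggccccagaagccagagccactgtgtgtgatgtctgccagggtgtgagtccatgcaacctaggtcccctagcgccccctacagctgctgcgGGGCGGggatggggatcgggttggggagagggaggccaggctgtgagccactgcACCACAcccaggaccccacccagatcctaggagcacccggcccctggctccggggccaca
Kcnma1 promoter: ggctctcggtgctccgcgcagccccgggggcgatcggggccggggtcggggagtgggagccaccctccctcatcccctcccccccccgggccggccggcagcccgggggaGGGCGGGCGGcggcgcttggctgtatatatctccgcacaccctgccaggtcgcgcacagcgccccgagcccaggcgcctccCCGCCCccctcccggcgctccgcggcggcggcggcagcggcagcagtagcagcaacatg
No gene of the lists had its promoter under an IFE region, so Ltbp4, a TGF-beta binding matrix protein (chr7:27337613-27337862, minus strand), and Gbx2, a homeobox factor (chr1:89931177-89931426, minus strand), were chosen after their values were seen.
Ltbp4 promoter: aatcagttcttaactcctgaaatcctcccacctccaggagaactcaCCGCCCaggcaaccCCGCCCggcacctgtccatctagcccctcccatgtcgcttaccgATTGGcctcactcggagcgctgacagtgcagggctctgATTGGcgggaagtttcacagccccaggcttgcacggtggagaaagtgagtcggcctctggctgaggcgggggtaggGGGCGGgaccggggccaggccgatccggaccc
Gbx2 promoter: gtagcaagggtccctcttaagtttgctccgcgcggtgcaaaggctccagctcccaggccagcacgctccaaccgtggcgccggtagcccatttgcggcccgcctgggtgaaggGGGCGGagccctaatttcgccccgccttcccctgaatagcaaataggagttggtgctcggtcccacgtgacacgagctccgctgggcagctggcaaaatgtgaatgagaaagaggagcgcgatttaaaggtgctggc

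The printed promoters were richer in G and C than the median of their class. Their GC content ran from 61.6% at Gbx2 to 79.2% at Kcnma1, while the median was 52.8% over the promoters under touch dome regions and 52.6% over those under IFE regions. Promoters with a peak in all 4 libraries had a median of 60.8%, and their median number of CpG dinucleotides was 17, against 5 in both differing classes. The GC box was found in 33.7% of touch dome promoters, 36.5% of IFE promoters and 32.7% of all promoters, but in 60.1% of those with a peak in all 4 libraries. The AP-1 motif went the other way. It was found in 17.8% of touch dome promoters (18 of 101) and 28.8% of IFE promoters (15 of 52), against 4.55% of promoters with a peak in all 4 libraries and 6.75% of all promoters. In the Ror2 sequence it stands once, as TGAGTCA. Promoters were counted per start site, so overlapping sequences of 1 gene can count more than once. The 101 touch dome promoters belonged to 94 genes and the 52 IFE promoters to 44. Protein-coding genes held 52 of the 101 touch dome and 28 of the 52 IFE promoters. They held 11380 of the 13508 promoters with a peak in all 4 libraries. The GC, CpG and motif values thus mix coding and non-coding genes in unlike shares, and the printed promoters were all of protein-coding genes. A 9-base Gli motif, TGGGTGGTC, was in 0 promoters of either differing class and in 0.225% of all promoters. A match is a description of letters, not a measured binding site, and the matches at Kcnma1 include 1 overlap of 2 GC boxes. Not all printed bases lay inside the differing region. Of 250 bases, 142 did at Ror2, 216 at Gbx2 and 247 at Kcnma1, and all 250 at Unc5c, Itga4 and Ltbp4.

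The 4 libraries were of like size except for the second touch dome library. Touch dome libraries had 50153 and 59250 peaks, and IFE libraries 52219 and 51124. Median peak width was 862 and 912 bp against 936 and 896 bp. Neither measure differed beyond the spread between libraries (two-sided exact permutation p = 1.0 for peak number and 0.667 for width, where 0.333 is the smallest p that 2 against 2 libraries allow). The deposited lists hold no read count, height or score, so depth is unknown. A peak in touch dome library 2 alone was seen at 5416 regions, against 747 in touch dome library 1 alone, 2321 in IFE library 1 alone and 1350 in IFE library 2 alone.

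**Figure D1:**
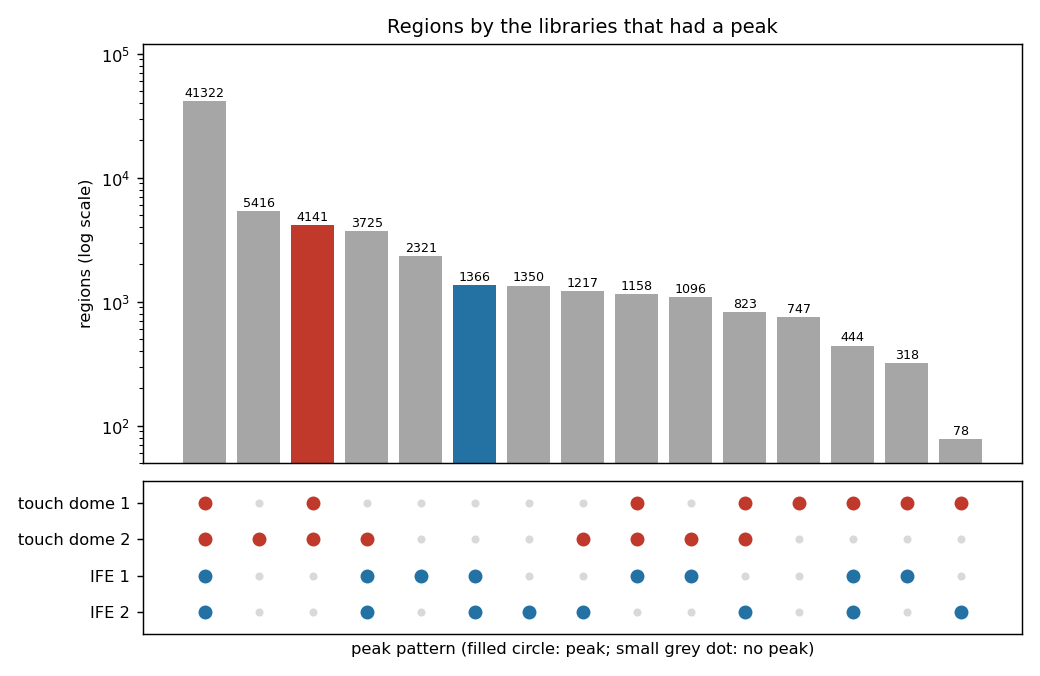
Number of regions (log scale) for each pattern of peaks over the 2 touch dome and 2 IFE libraries, with filled circles for a peak. The red bar is the 4141 touch dome regions and the blue bar the 1366 IFE regions, beside 41322 regions with a peak in all 4 libraries.

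The excess of touch dome over IFE regions was absent when touch dome library 2 was left out. With 1 touch dome library then setting the rule in both directions, there were 5008 touch dome and 5154 IFE regions. The counts were 9573 and 1813 without touch dome library 1, 5316 and 2761 without IFE library 1, and 4966 and 3709 without IFE library 2. Taking the same number of widest peaks from each library kept the excess, with 3580 touch dome and 2289 IFE regions. The total numbers of regions in the 2 directions are therefore not compared further here. Gene groups are read against the share of touch dome or IFE regions among all regions near genes. Net numbers per gene (touch dome minus IFE regions), used below to rank genes, and counts of both kinds set side by side carry this imbalance.

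Touch dome regions were narrower than shared regions but wider than IFE regions. Their median width was 753 bp, against 503.5 bp for IFE regions and 1186 bp for the 41322 regions with a peak in all 4 libraries. Within touch dome regions the median peak was 545 bp in touch dome library 1 and 707 bp in library 2. Within IFE regions it was 435 and 412 bp. The widest touch dome regions, 2609 to 3084 bp, were nearest to Ramp1, Spock1, Fermt1, Ddx4 and Nfib, and all 5 had a peak in both HF libraries. The widest IFE regions, 1649 to 2401 bp, were nearest to F830045P16Rik, Rnf217, Snx32, Tacc2 and Ptp4a2, and 2 of them, at Rnf217 and Tacc2, had a peak in both HF libraries.

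The HF libraries had a peak far more often at touch dome than at IFE regions. A peak in both HF libraries was found at 74.6% of touch dome regions (3091 of 4141, exact 95% binomial interval 73.3 to 76.0%) and at 18.1% of IFE regions (247 of 1366, 16.1 to 20.2%). The regions with a peak in all 4 libraries had one at 83.0%, and all 65522 regions at 68.8%. Over all widths, the touch dome share thus lay nearer to that of all regions than the IFE share did. Each HF library gave the same picture, with 77.3% and 76.7% of touch dome regions against 23.7% and 26.6% of IFE regions. At 855 touch dome regions (20.6%) neither HF library had a peak, while this held for 925 IFE regions (67.7%). The intervals cover counting error alone, and neighbouring regions are not independent.

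This gap was present in each width class. In regions of 500 to under 750 bp, a width class chosen after the data were seen, a peak in both HF libraries stood at 72.8% of touch dome and 20.7% of IFE regions. Under 500 bp the shares were 59.0% and 15.7%, from 750 to under 1000 bp 78.9% and 15.5%, and at 1000 bp or more 82.1% and 28.8%. Among all regions the share was 32.5% under 500 bp and 50.5% from 500 to under 750 bp. It was 69.8% from 750 to under 1000 bp and 88.8% at 1000 bp or more. Under 500 bp the IFE share thus lay nearer to that of all regions. Over all widths the touch dome and IFE shares were 67.2% and 36.3% when touch dome library 2 was left out. They were 61.1% and 19.2% when library 1 was left out, so the order held with either touch dome library.

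Touch dome regions lay far from genes more often than the others. Outside and over 50 kb from any protein-coding gene were 31.2% of touch dome regions, 15.9% of IFE regions and 12.7% of regions with a peak in all 4 libraries. Within 1 kb of either end of a gene span, its start or its far end, were 3.24%, 5.86% and 27.9%. Inside a gene span were a further 43.9%, 45.9% and 36.5%. Among touch dome regions the share over 50 kb was 24.5% under 500 bp and 37.3% at 1000 bp or more, while among IFE regions it was 14.5% and, in 52 regions, 7.69%.

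**Figure D2:**
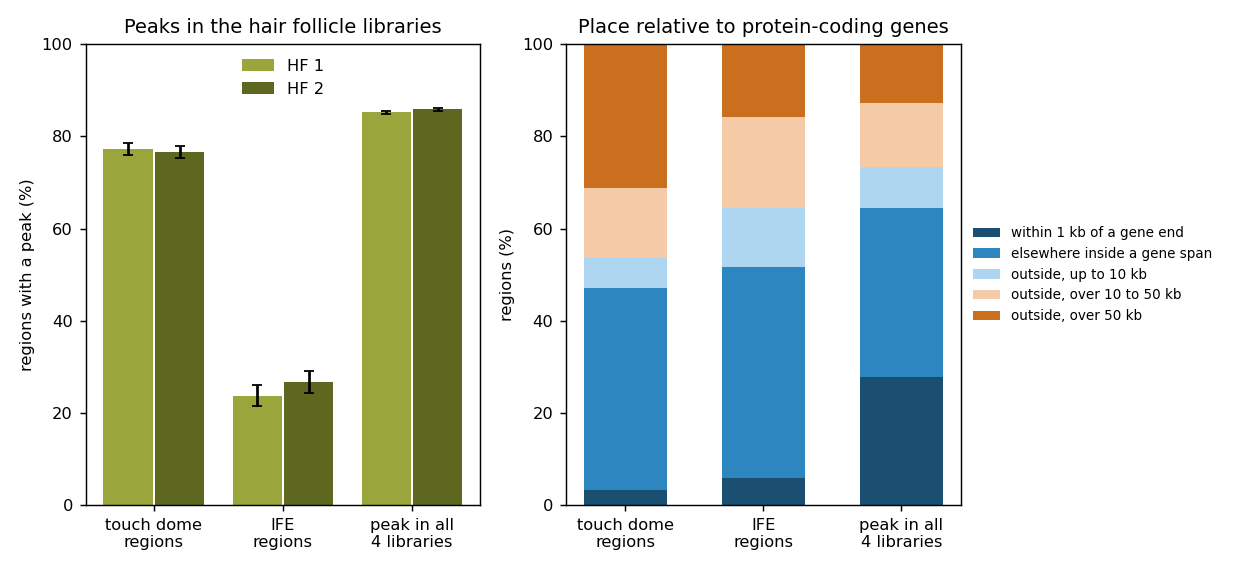
Left, the share of regions (%) with a peak in each HF library, with exact 95% binomial intervals as error bars, for touch dome regions, IFE regions and regions with a peak in all 4 libraries. Right, the share of regions (%) by place relative to protein-coding genes, where 31.2% of touch dome and 15.9% of IFE regions lay over 50 kb from a gene.

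Each region was given to the nearest protein-coding gene span within 50 kb, which placed 55006 regions at 15182 genes. Of these regions, 2849 were touch dome regions (5.18%) and 1148 IFE regions (2.09%). Touch dome regions and no IFE region were found at 1699 genes (11.2% of genes with a region), IFE regions alone at 790 genes (5.2%) and both at 223 genes (1.47%). Genes with touch dome regions were long and had many regions. Their median span was 68.7 kb and their median number of regions 5, against 37.1 kb and 5 for genes with IFE regions alone and 20.3 kb and 2 for genes with neither. Counts per gene are therefore given with the number of regions that the gene has. When touch dome library 2 was left out, 6.91% of regions near genes were touch dome and 8.08% IFE regions, and when library 1 was left out 12.7% and 2.86%, and the counts of most lists moved with these shares.

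Tnc, whose driver marked the sorted cells, had the densest group of touch dome regions in the genome when counted in bins of 500 kb, with 12 in 1 bin. The gene spans chr4:63959785-64047015 on the minus strand. Within 50 kb it had 17 regions, and touch dome libraries had a peak at 17 and 17 of them, IFE libraries at 11 and 11, and HF libraries at 13 and 12. The 6 touch dome regions among them were 2 inside the gene, 2 beyond its far end and 2 upstream of its start, and 5 of the 6 had a peak in both HF libraries. The region over the Tnc start itself (chr4:64046269-64047643) was not among them. It had a peak in all 6 libraries, 1088 and 1375 bp wide in touch dome, 907 and 770 bp in IFE and 1295 and 1276 bp in HF.

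The difference at Tnc reached far upstream of the gene. Of the 35 regions for which Tnc was the nearest gene at any distance, 14 were touch dome regions and 0 were IFE regions, and 10 of the 14 lay upstream. Peaks were present at 32 and 35 of the 35 in touch dome, 18 and 18 in IFE and 25 and 24 in HF libraries. The last 6 touch dome regions were consecutive, from chr4:64264279 to 64452316, with no region of another pattern between them, and the farthest was 404 kb from the gene. In the region at chr4:64431208-64432839, peaks were 1244 and 1632 bp wide in touch dome and 1609 and 1622 bp in HF, with none in IFE. At chr4:64155800-64156828 and chr4:64437743-64438376 the touch dome libraries alone had a peak, among all 6. Because the cells were chosen by a Tnc driver, these values describe the sort as well as the cells, and no sequence reads were used here to tell transgene from locus.

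**Figure D3:**
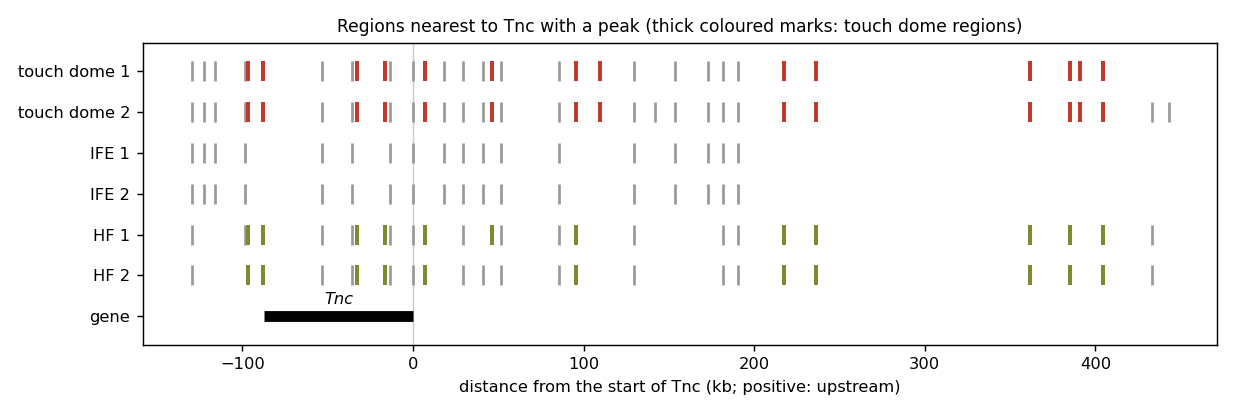
Regions nearest to Tnc that had a peak in each library, by distance from the Tnc start (kb, positive upstream), with touch dome regions as thick coloured marks and other regions in grey. The 6 touch dome regions farthest upstream have no mark in the IFE libraries, and 5 of the 6 have a mark in both HF libraries.

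The other known genes of touch dome keratinocytes did not all differ. The list of 8 had 65 regions, of which 17 were touch dome regions (26.2%) and 0 were IFE regions. Tnc, whose driver marked the sorted cells, and Cadm1, among the genes with the largest net number, held 13 of the 17. The members were chosen with earlier results of these data known, so the share is a description. The list had 17 of 63 and 0 when touch dome library 2 was left out. Cadm1, a cell adhesion molecule of nerve and epithelial contacts (chr9, 25 regions), had 7 touch dome regions, with peaks at 21 and 24 regions in touch dome, 15 and 14 in IFE and 21 and 19 in HF libraries. Hhip, a Hedgehog-binding inhibitor that is itself a target of the pathway, had a peak at 3 and 4 of its 4 regions in touch dome, 0 and 1 in IFE and 4 and 4 in HF libraries. Upstream of its start lay 2 more touch dome regions, 119.5 and 191.8 kb away. Ptch1, the Hedgehog receptor, had 1 touch dome region of 5, and 2 more at 53.9 and 69.4 kb. Krt17, Cd200 and Gli1 had none: Gli1 had a peak in every library at both of its regions, and Krt17 at 2 and 2 of 3 regions in touch dome and 3 and 2 in IFE.

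Sort markers matched the gates in part. Epcam and Itga6, which both gates required, had 0 differing regions within 50 kb, with peaks at 6 and 7 of 7 Epcam regions in touch dome and 7 and 6 in IFE. At Itga6 peaks stood at 14 and 14 of 21 regions in touch dome, 20 and 15 in IFE and 7 and 8 in HF libraries. Ly6a, which encodes SCA1 and was required in both gates too, had 1 IFE region (chr15:75001268-75001795, 3.24 kb beyond the gene), with peaks of 528 and 434 bp in IFE and none in the other 4 libraries. Its other 4 regions had peaks in both touch dome and both IFE libraries, and in HF libraries peaks stood at 2 and 2 of all 5.

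Of the Merkel cell genes, several that define the cell had no region or no touch dome region. The list of 16 had 25 regions near 13 genes, with 4 touch dome and 0 IFE regions. The 4 touch dome regions made up a larger share of the list than the 5.18% of all regions near genes. Those 4 were at Piezo2, the mechanosensitive channel of Merkel cells, and Rab3c, a synaptic vesicle GTPase, with 2 of 5 regions each, and all 4 had a peak in both HF libraries. Atoh1, the factor that specifies Merkel cells, had 1 region, with a peak in touch dome library 2 and IFE library 1. Pou4f3, Chga and Vip had no region. Krt8 and Sst had a peak in all 6 libraries at their 1 region, and Krt20 had 1 region with a peak in IFE library 1. The list had 4 touch dome and 3 IFE regions of 23 without touch dome library 2, and 1 and 1 of 17 with nearest start sites. Over the list, peaks stood at 16 and 22 regions in touch dome, 19 and 14 in IFE and 19 and 21 in HF libraries. The groups thus overlapped in the number of regions with a peak. The share of Merkel cells in the sort was not tested.

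Hedgehog signalling, in which a secreted ligand relieves the block of its receptor on Smo and so activates the Gli factors, had 15 touch dome regions among 128 (11.7%, against 5.18% of all regions near genes) and 2 IFE regions. The touch dome regions fell at 9 of the 19 genes with a region (47.4%, against 11.2% of all genes). IFE regions alone were at 2 other genes (10.5%, against 5.2%). The listed genes had a median of 5 regions each, against 2 over all genes with a region. Among the receptors, Boc, a co-receptor, had 3 touch dome regions of 13, 1 of them 0.024 kb outside the gene, and Cdon, its relative, 1 of 7. Gli2, the main activating Gli factor, had 4 of 22, with peaks at 20 and 21 regions in touch dome, 15 and 13 in IFE and 18 and 17 in HF libraries. Its widest (chr1:118954620-118956304) lay inside the gene next to the hairpin of Mir6346, with peaks of 1478 and 1685 bp in touch dome and 1484 and 1349 bp in HF. Sufu, an inhibitor of Gli, had 1 of 8, and Disp1, which releases the ligand, 1 of 16. Gli3, often a repressor, and Hhat, which acylates the ligand, had 1 IFE region each. With touch dome library 2 left out, the list had 17 touch dome and 10 IFE regions of 112 (15.2% and 8.93%). When regions went to the nearest start site in place of the nearest span, the excess was gone, with 3 touch dome and 2 IFE regions of 76 (3.95% and 2.63%, against 3.79% and 1.98% of all regions near genes).

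Wnt pathway genes had 31 touch dome and 5 IFE regions of 418 (7.42% and 1.20%). Ror2, the receptor whose promoter is printed above, led with 6 of 21 regions, and peaks stood at 14 and 20 regions in touch dome, 7 and 7 in IFE and 18 and 17 in HF libraries. At its promoter region (chr13:53285569-53286266) peaks were 566 and 698 bp wide in touch dome and 698 and 698 bp in HF, and IFE had none. Lgr5, an R-spondin receptor and stem cell marker of the follicle, had 3 of 9, and Lgr4, its relative, 2 of 16. Sfrp1, a secreted Wnt inhibitor, had 2 of 15. Ligands (Wnt2, Wnt5b, Wnt6, Wnt9a, Wnt11) and the nuclear factor Lef1 had 1 each. This excess was not stable. With the widest peaks in equal number from each library, the list had 22 touch dome and 17 IFE regions, 5.67% and 4.38%, against 4.70% and 3.64% of all regions near genes. Among the wider 50% of peaks the touch dome share was 4.11%, against 4.06% of all.

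BMP and TGF-beta genes had regions of both kinds. The list had 18 touch dome regions of 283 (6.36%) and 10 IFE regions (3.53%, against 2.09% of all regions near genes). On the touch dome side were 2 regions each at the ligand Bmp6, the co-receptor Tgfbr3 and the ligand-binding matrix proteins Ltbp1 and Ltbp2. On the IFE side were the receptor genes Tgfbr2, with 2 of 12 regions, and Acvrl1, with 2 of 5, and 1 region each at Smad1 and Smad3, which carry the signal to the nucleus, and at the ligands Bmp4, Tgfb3 and Inhbb. At Tgfbr2, peaks stood at 8 and 9 regions in touch dome, 12 and 11 in IFE and 7 and 8 in HF libraries, and neither IFE region had a HF peak. The list had 20 and 20 of 271 without touch dome library 2, and 3 and 2 of 166 (1.81% and 1.20%) among the wider 50% of peaks. Notch pathway genes had 3 touch dome regions of 146 (2.05%), at Notch2, Maml2 and Maml3, and 0 IFE regions. FGF and EGF family genes had 5 and 6 of 210 (2.38% and 2.86%), with IFE regions at Egfr, Tgfa, Fgfr2, Fgf14 and Lrig1. Leaving out touch dome library 2 gave 7 and 23 of 201, and at Fgfr2 the net number of regions (touch dome minus IFE) turned to 1 without touch dome library 1.

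Genes of the hair follicle stem cells and outer root sheath had 37 touch dome and 7 IFE regions of 357 (10.4% and 1.96%). Touch dome regions alone were found at 13 of the 28 genes (46.4%, against 11.2% of all genes with a region). These genes had a median of 8.5 regions each, against 2 over all genes with a region, so the 2 gene shares are not alike in the number of regions. Of the 37 touch dome regions, 33 had a peak in both HF libraries, against 2094 of all 2849 near genes. Postn, a matrix protein gene of the follicle bulge, had a peak at 5 and 8 of its 8 regions in touch dome, 1 and 1 in IFE and 7 and 7 in HF libraries. Lgr5 had one at 8 and 8 of 9 in touch dome, 4 and 4 in IFE and 9 and 9 in HF. Cd34, a bulge surface marker, had 2 touch dome regions of 7. Runx1 stood apart from these, since 1 of its 4 touch dome regions within 50 kb had a peak in both HF libraries. Its peaks were at 17 and 22 of 23 regions in touch dome, 15 and 16 in IFE and 18 and 17 in HF. Bnc2 had 5 touch dome regions and 1 IFE region of 28, Hmga2 3 and 0 of 8, and Nfib, a factor of follicle stem cells, 3 and 1 of 40. Foxp1, which restrains cycling of those stem cells, went the other way with 1 and 3 of 36, but its net number was 2 without touch dome library 1. At Bnc2 the net number turned to -1 when regions went to the nearest start site. Leaving out touch dome library 2, the list had 42 touch dome and 28 IFE regions of 323 (13.0% and 8.67%). The gate for touch dome cells required SCA1, which the HF gate lacked, and the share of follicle cells in the touch dome sort was not tested.

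Other epidermal lineages differed in their shares. Sebaceous gland genes had 5 touch dome regions and 1 IFE region of 60 (8.33% and 1.67%, against 5.18% and 2.09% of all regions near genes), among them 1 each at the lipid genes Scd1, Plin2, Cidea and Fabp5. Hair matrix and inner root sheath genes had 4 and 1 of 84 (4.76% and 1.19%), with Krt27 and Hoxc13 on the touch dome side and Gata3 on the IFE side. Infundibulum and junctional zone genes had 2 and 2 of 71 (2.82% for both). Suprabasal IFE genes had 3 and 2 of 134 (2.24% and 1.49%), and the 3 were at Grhl1, Klf4 and Calml3, while Dsc1, a desmosomal cadherin of differentiating cells, and Skint6 had the IFE regions. The net number at Calml3 turned to -1 without touch dome library 2.

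Basal IFE genes were among the lists with a larger share of IFE regions than of touch dome regions. They had 8 touch dome and 9 IFE regions of 211 (3.79% and 4.27%). Sox6, a transcription factor, held 4 of the 9, with peaks at 11 and 14 of 21 regions in touch dome, 19 and 17 in IFE and 6 and 8 in HF libraries. The others were at Itgb1, the integrin β1 chain, Tfap2c, Trp63, Slc1a3 and Ly6a. Dst, a hemidesmosome linker, had 3 touch dome regions of 23. The list had 10 and 24 of 205 without touch dome library 2, 5 and 12 of 201 with the widest peaks in equal number, and 1 and 1 of 109 among the wider 50% of peaks, where the net number at Sox6 turned to 1. Immediate early and stress genes, which respond to cell isolation, had 1 touch dome and 3 IFE regions of 127 (0.787% and 2.36%), with 2 IFE regions at Fosl2 and 1 at Jun, both AP-1 genes. Jun turned to a net number of 1 with the wider 50% of peaks.

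Cell adhesion and neuronal genes held large numbers of touch dome regions. Immunoglobulin-superfamily adhesion genes had 36 touch dome regions of 184 (19.6%) and 5 IFE regions (2.72%). Synaptic and neuronal genes had 59 of 452 (13.1%) and 6 (1.33%). These genes are very long, with a median span of 290.7 kb in the first list and 739.9 kb in the second, against 23.8 kb over all genes with a region. Sdk1, a synaptic adhesion protein, had 7 of 15, Opcml 4 of 12 and Cntn5 4 of 7. Anks1b, a protein of the postsynaptic density, had 7 of 11, Kcnma1 6 of 22, and the teneurins Tenm3 and Tenm2 6 of 18 and 5 of 36. Of the 59 touch dome regions in the synaptic list, 41 had a peak in both HF libraries, against 2094 of all 2849 near genes. The adhesion list had 38 and 11 of 155 without touch dome library 2, and the synaptic list 68 and 31 of 383 (17.8% and 8.09%). Other settings gave lower touch dome shares. The adhesion list had 7 of 85 (8.24%) among the wider 50% of peaks and 4 of 41 (9.76%) with nearest start sites, and the synaptic list had 6 touch dome and 4 IFE regions of 70 (8.57% and 5.71%) with nearest start sites.

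Axon guidance genes had 32 touch dome and 12 IFE regions of 401 (7.98% and 2.99%). The netrin receptor Unc5c had a peak at 3 and 4 of its 4 regions in touch dome, at 0 and 0 in IFE and at 1 and 1 in HF libraries. At the region over its promoter (chr3:141464804-141465613), peaks were 645 and 762 bp in touch dome and 579 and 410 bp in HF. Plxna2, a semaphorin receptor, had 3 of 18 and Robo1, a Slit receptor, 3 of 20, while Epha2 had 2 IFE regions of 8. Nearest start sites gave the list 6 and 5 of 184, and its touch dome share of 3.26% was then below the 3.79% of all regions. Leaving out touch dome library 2 gave 36 and 33 of 369 (9.76% and 8.94%). Neurotrophin ligands and receptors had 8 touch dome and 4 IFE regions of 91, and 1 and 2 of 36 with nearest start sites. The receptors of BDNF and of GDNF family ligands, Ntrk2 and Gfra1, had 2 touch dome regions each, of 24 and 15. Ngfr, the low-affinity receptor, had 2 IFE regions of 6.

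Matrix and junction genes were mixed. Laminins, integrins and hemidesmosome genes had 18 touch dome and 7 IFE regions of 277 (6.50% and 2.53%). Itga8, partner of integrin β1, had 2 of 3, and Itga4 1 of 4, the region over its printed promoter, with peaks of 1001 and 661 bp in touch dome and 788 and 680 bp in HF. Cadherins had 11 and 8 of 194, and 5 of the 8 IFE regions were at Cdh4. Without touch dome library 2, IFE regions outnumbered touch dome regions in both lists, as they did among all regions near genes (6.91% and 8.08%). Laminins and integrins then had 23 and 28 of 258 (8.91% and 10.9%). Cadherins had 11 and 23 of 175 (6.29% and 13.1%). Hox genes, which carry positional identity, had 7 and 2 of 72, with all regions of Hoxd13 (2), Hoxd1 (1) and Hoxd9 (1) on the touch dome side. Among the wider 50% of peaks the Hox list had 0 and 0 of 42. Sox, Runx, Fox and NFI factors had 15 and 12 of 350 (4.29% and 3.43%). The p63, AP-2, Grhl, Klf and Ovol factors had 14 and 4 of 271 (5.17% and 1.48%), with Trp63, the master factor of stratified epithelium, at 2 and 1 of 29. Without touch dome library 2, Trp63 had a net number of -3.

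**Figure D4:**
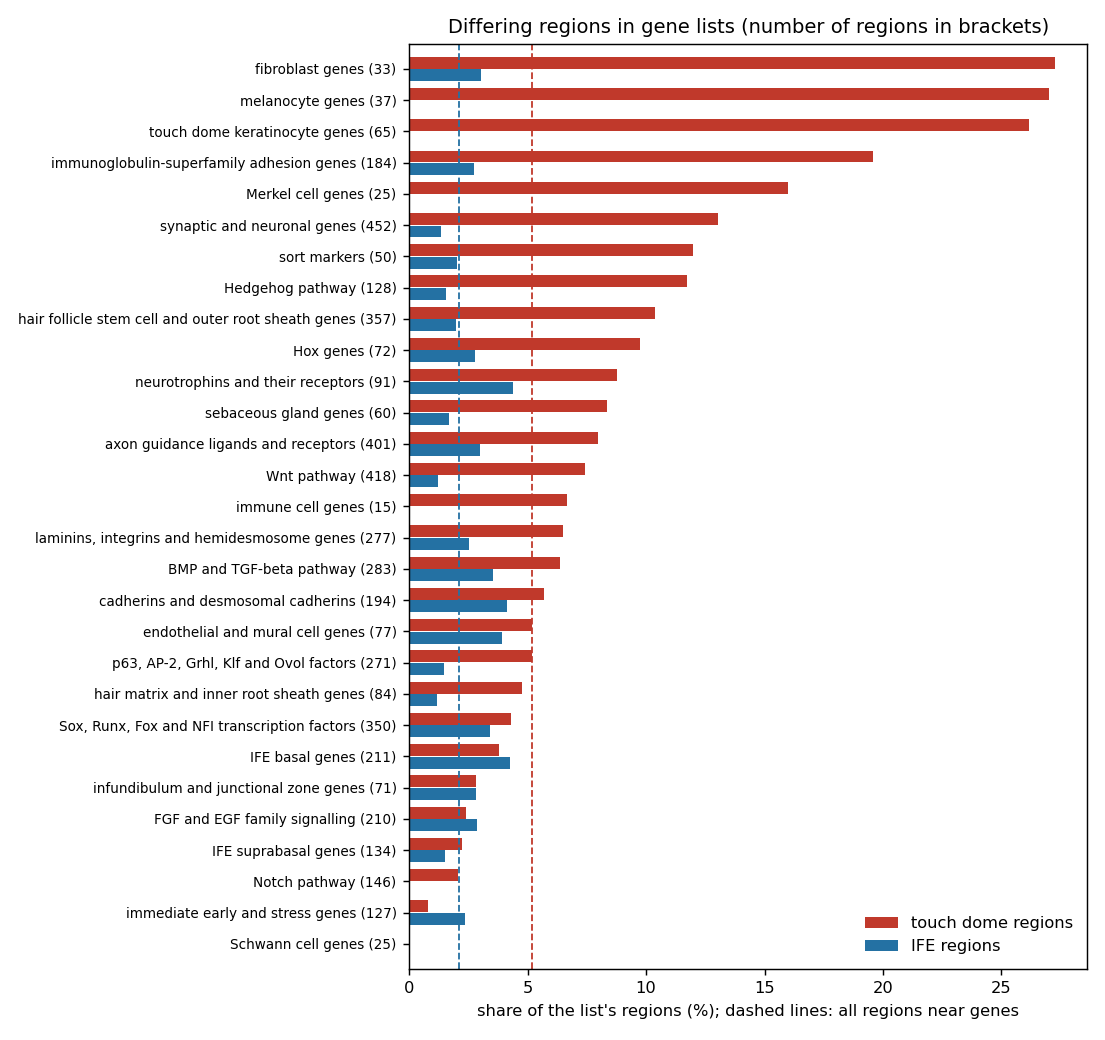
Share of each list's regions (%) that were touch dome regions (red) or IFE regions (blue), with the number of regions in brackets and dashed lines at the shares over all regions near genes (5.18% and 2.09%). Fibroblast, melanocyte and touch dome keratinocyte genes have the highest touch dome shares (27.3%, 27.0% and 26.2%), from 33, 37 and 65 regions. Of the 17 touch dome regions in the last of these lists, Tnc, whose driver marked the sorted cells, held 6 and Cadm1 7.

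Markers of other skin cells moved with the touch dome direction in some lists. Melanocyte genes had 10 touch dome and 0 IFE regions of 37 (27.0%), with peaks at 28 and 34 regions in touch dome, 22 and 19 in IFE and 29 and 28 in HF libraries. Of these 5 were at Mitf, 3 at Oca2 and 1 each at Dct and Slc24a5, and 9 of the 10 had a peak in both HF libraries. The defining pigment genes Tyr and Pmel, and Kit and Ednrb, had no region. Fibroblast genes had 9 and 1 of 33 (27.3%), with peaks at 23 and 31 regions in touch dome, 18 and 15 in IFE and 22 and 24 in HF. Both regions of Col1a2 and 2 of 3 of Crabp1 were touch dome regions, and Col3a1, Pdgfrb, Lum, Twist1 and Twist2 had no region. The melanocyte list had 10 and 2 of 34 and the fibroblast list 10 and 1 of 30 without touch dome library 2. With nearest start sites the melanocyte list had 2 of 20, and among the wider 50% of peaks the fibroblast list had 2 of 17 (11.8%). Endothelial and mural genes had 4 and 3 of 77, immune cell genes 1 and 0 of 15, at Ptprc, and Schwann cell genes 0 and 0 of 25. Both gates required EPCAM, an epithelial surface protein, and integrin α6, and the purity of the sorted cells was not measured here. Whether other cells in the sort had a part in the results above was not tested, and in bulk libraries more cells of a type and a wider opening per cell cannot be told apart.

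Away from the lists, the genes with the largest net number of touch dome regions were mostly long. Atp8a2, a phospholipid flippase known from neurons, had 10 of 19, all inside the gene. Peaks stood at 14 and 18 of its regions in touch dome, 2 and 3 in IFE and 16 and 16 in HF libraries, and all 10 had a peak in both HF libraries. Its widest (chr14:59714952-59716523) had peaks of 1455 and 1572 bp in touch dome and 1454 and 1332 bp in HF. Dennd1a, an activator of the endocytic GTPase Rab35, had 8 of 16, with 11 and 16 in touch dome, 3 and 4 in IFE and 13 and 12 in HF. Lrmda had 8 touch dome regions and 1 IFE region of 45. Dpyd, which breaks down pyrimidines, had 7 of 13, with 8 and 13, 1 and 2, and 12 and 12. Ralgps1, Hmcn1, a matrix protein gene, and App, the gene of the amyloid precursor protein, had 7 each, of 18, 25 and 33. In each of these genes but Lrmda, both touch dome libraries had a peak at more regions than either IFE library. The genes were chosen by peaks in these same libraries, so this order follows largely from the choice. With touch dome library 2 left out, Atp8a2 had 11 and 0 differing regions in the touch dome and IFE directions, and Dennd1a 7 and 0.

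Cdh4, Slc16a10 and Sox6 had the largest net number of IFE regions, 4 each. Cdh4, which encodes R-cadherin, had 5 IFE regions and 1 touch dome region of 14, with peaks at 6 and 8 regions in touch dome, 12 and 11 in IFE and 3 and 3 in HF libraries. None of the 5 had a HF peak. Slc16a10, a transporter of aromatic amino acids, had 4 of 13, with 8 and 9 in touch dome, 13 and 13 in IFE and 6 and 6 in HF. Its widest (chr10:40151964-40152901) had peaks of 938 and 377 bp in IFE and lay 9.69 kb outside the gene. After Sox6 came genes with 3 IFE regions and 0 touch dome regions. Among them were Ap1m1 (of 5 regions), Lsmem1 (11), Ppp2r2c (12), Ly86 (16), Atg10 (21) and Prickle2 (30), and Ap1m1, a clathrin adaptor subunit gene, had a peak at 1 and 1 regions in touch dome, 4 and 5 in IFE and 4 and 5 in HF. Atg10 turned to a net number of 1 with the wider 50% of peaks.

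**Figure D5:**
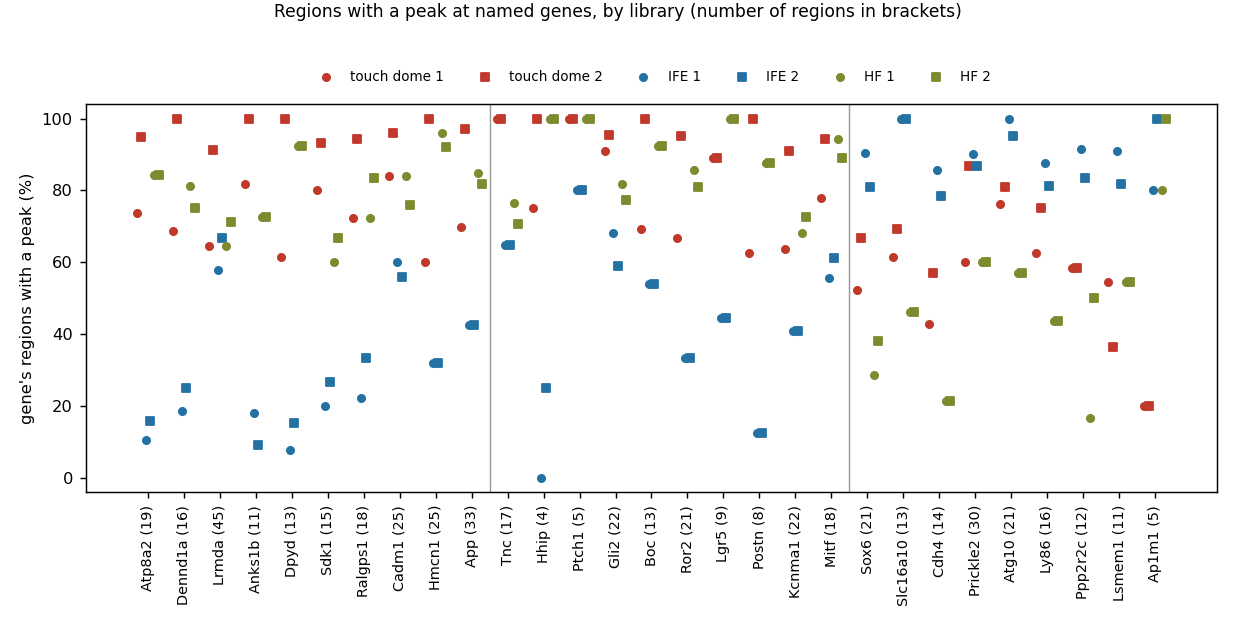
Share of a gene's regions within 50 kb that had a peak (%), in each library, for the 10 genes with the largest net number of touch dome regions (left), 10 genes of the lists named in the text (middle) and 9 of the 10 with the largest net number of IFE regions (right), with the number of regions in brackets. The middle genes were all taken from the touch dome side, so they do not stand for their lists as a whole. Listed genes left out include Gli1, Krt17 and Cd200, with a net number of 0, and Foxp1 and Tgfbr2, with -2 each. At Atp8a2 the touch dome libraries have a peak at 14 and 18 of 19 regions and the IFE libraries at 2 and 3. At Slc16a10 the IFE libraries have one at 13 and 13 of 13.

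Touch dome regions also stood in unbroken series along the chromosome, with no region of another pattern between them. The longest held 10 regions over 253.8 kb (chr12:5552247-5806069) with Klhl29 as the nearest gene, all over 50 kb from it, and 8 of them had a peak in both HF libraries. Series of 8 lay at Col5a2 and Wdr75 (chr1:45447615-45735594), at Bicc1 (chr10:70783175-71059149) and between Gfra2 and Gm9195 (chr14:71199430-71986263), with 7 of 8 regions in both HF libraries at each. A series of 7 in 63.5 kb had Cdh5 as its nearest gene (chr8:103520012-103583468), with all 7 in both HF libraries. Cdh5, the endothelial cadherin, had no region within 50 kb. The fewer IFE regions formed 1 series of 3 and 37 of 2, and no scaling for their number was made.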

How the data were processed

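Each library had 1 ATAC-seq peak list. Per the submitters' processing notes, the authors used MACS2 2.2.7.1, SAMtools 1.9, Bowtie2 2.4.5 and Trim Galore 0.6.7, on the build mm10. For settings, peak threshold and any shift of reads for the transposase, values were not given in the sources used here. Deposited lists give chromosome, start, end and name per peak, with no score or signal, so a peak is present or absent, and that depends on an unknown depth. Groups came from the labels.

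Peaks of the 4 lists were merged at an overlap of 1 bp (Python 3.11.15, pandas 2.3.3, NumPy 2.4.6). Regions went to the nearest of 21887 RefSeq protein-coding gene spans (GRCm38.p6) within 50 kb. Spans lack strand, and start sites were held for 17492 (79.9%) of these genes, so spans were used. A region that overlapped several genes (35 of the differing regions) went to 1 of them. Library measures were compared by exact permutation and shares given exact 95% binomial intervals (SciPy 1.17.1). No test was run over genes or regions. Region building and gene distances were tested on simulated data, with 0 of 4200 library states and 0 of 1050 distances wrong.

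The rule for named genes took the top 10 per direction by net number of differing regions, up to 4 per list whose net number was 1 or more, all sort marker, touch dome and Merkel cell genes, listed genes whose promoter or end was overlapped, and the nearest genes of the 5 widest regions. Other listed genes named singly, and Ltbp4, Gbx2, Klhl29, Col5a2, Wdr75, Bicc1, Gm9195 and Cdh5, were chosen after their values were seen. Some genes that the rule takes are not reported here. The 29 lists (695 genes, 617 with a region) overlap in part, and members and lists were chosen with earlier results of these data known. Alternatives were other merging and gene windows, peak cover, the wider 50% of peaks, the widest peaks in equal number from each library, autosomes alone, nearest start sites and leaving out each library.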

Additional observations from a re-analysis of the deposited data

How the results depend on the processing

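Leaving out 1 library at a time gave 4966 to 9573 touch dome regions and 1813 to 5154 IFE regions, 1622 to 3376 genes with touch dome regions alone and 800 to 2300 with IFE regions alone. The share with a peak in both HF libraries ran from 61.1 to 74.5% of touch dome regions and 11.97 to 36.3% of IFE regions. The difference in peak number (touch dome minus IFE) ran from -1518.5 to 7578.5 and that in the share of peaks within 1 kb of a gene end from -2.62 to 0.326 percentage points. Both turned without touch dome library 2. Their values with all libraries were 3030.0 and -1.15 (exact permutation p = 1.0 for each, 0.333 being the smallest possible).

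The wider 50% of peaks gave 1650 and 617 regions, 928 and 419 genes, and HF shares of 69.7% and 20.7%. Equal numbers of the widest peaks gave 2289 IFE regions, 1286 genes with IFE regions alone and a HF share of touch dome regions of 76.2%. A peak cover of 50% of the region gave 73.2% for that share. Nearest start sites gave 1092 genes with touch dome regions alone. In regions of 500 to under 750 bp the HF shares were 72.8% and 20.7%. The number of lists with a touch dome share above that of all regions near genes was 19 of 29 and ran from 15 to 20 over the alternatives. The net number (touch dome minus IFE regions) turned sign at Fgfr2 (1, with a peak cover of 50%; -6 to 1 over the left-out libraries), at Efna5 (-1), Jun (1), Atg10 (1) and Sox6 (1) with the wider 50% of peaks, and at Fras1 (-1) and Trp63 (-1) with equal numbers. It turned at Znrf3 (-1 to 1 over the left-out libraries) and Foxp1 (-7 to 2) without touch dome library 1, at Pcdh7 (-1 to 4), Trp63 (-3 to 1) and Calml3 (-1 to 1) without touch dome library 2, at Lgr6 (-1 to 2) without IFE library 2, and at Bnc2 (-1) and Pcdh7 (-1) with nearest start sites. The causes were not tested.

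Same-numbered libraries of both groups did not deviate together (correlation 0.0587 for peak presence over 65522 regions and 0.0262 for peak width over 41322), so the numbers were not taken to pair the samples. With the replicate block the counts stayed at 4141 and 1366 regions, 1699 and 790 genes and 74.6% and 18.1%, since the rule already asks for both pairs, and p was 1.0 for the library measures. Depth is unknown, so a missing peak can be a weak one. No peak sequence was used here.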

Other observations

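Touch dome regions were spread unevenly over the autosomes and chromosome X (chromosome Y had 16 regions and is left out). They made up 9.03% of regions on chromosome 14 and 8.20% on chromosome 1, against 3.94% on chromosome 19 and 3.71% on chromosome X. IFE regions varied less, from 1.67% on chromosome 1 to 2.66% on chromosome 15. Beyond 50 kb, the genes with the most touch dome regions as their nearest were Klhl29 with 12, Cdh5 with 10 and Cited2, a transcriptional co-regulator gene, with 9, and 9, 10 and 8 of these had a peak in both HF libraries. Tgfb2, a TGF-beta ligand gene, had 7 such regions of 10, and Gfra2, a receptor gene for neurturin, 7 of 10. The most for IFE regions was 3, at Fut8, Nfib and Serp2.

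Differing regions lay within 1 kb of 7 microRNA hairpins of the RefSeq table. Touch dome regions were next to Mir6346, inside Gli2, and next to Mir330, Mir3080 and Mir3547, and all 4 had a peak in both HF libraries. IFE regions were next to Mir6998, Mir6985 and Gm51292, and of these the one at Gm51292 had a peak in both HF libraries. Regions with a peak in 1 touch dome library and neither IFE library numbered 6163, and 47.6% of them had a peak in both HF libraries. Regions with a peak in 1 IFE library and neither touch dome library numbered 3671, with 15.7%.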
